A study of Drosophila melanogaster with 9 samples.

Results

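The Bithorax complex holds 3 Hox genes of Drosophila melanogaster, Ultrabithorax (Ubx, FBgn0003944), abdominal-A (abd-A, FBgn0000014) and Abdominal-B (Abd-B, FBgn0000015). The region examined was 3R 12480001 to 12810000 of the dm3 build (330 kb), set by position and not by any measured value. Earlier results of these data were known when the genes and rules were chosen. All 3 genes lie in it, with Ubx at 12482400 to 12560300 (77.9 kb), abd-A at 12632900 to 12655800 (22.9 kb) and Abd-B at 12752900 to 12798000 (45.1 kb). These bounds are approximate and given to 100 bp. Intervals of 72.6 kb and 97.1 kb separate the genes, and 12 kb remain beyond Abd-B. The region was compared with the 100 kb on either side and with 6 chromosome arms (X, 2L and 2R, 3L and 3R, and 4), of which it makes up 660 of 240732 tiles of 500 bp.

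The study asked which chromatin marks genes carry in undifferentiated cells of the male germline. Its ChIP-seq sample was testis of bam mutant flies, in which germ cells stop before they become spermatocytes. The labels name the stocks bam1/TM3 and bam114-97/TM6B, and the methods give bam1/bam114-97 as the genotype of bam testis. About 200 pairs of testes were pooled for each ChIP, and the tissue holds somatic cells beside the germ cells, so the cells that gave a read cannot be told apart. The second sample was S2, a cultured Drosophila cell line that was growing exponentially when harvested and carried no stated mutation or treatment. Age of the flies is not given in the sources used here. For each sample there was 1 library for H3K4me3, H3K27me3, H3K36me3 and RNA polymerase II (Pol II), and 1 further library held S2 RNA-seq. The labels were not checked against marker genes, because gene models of dm3 were not used here.

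The 9 libraries held between 1250028 and 7289715 reads once identical reads beyond 3 copies had been removed. Density is given as reads per kb per 1000000 kept reads (RPM per kb) with an exact 95% Poisson interval. These intervals cover counting error alone, as reads with no molecular identifier may be copies of 1 molecule. Adjacent tiles differed by more than counting error. The variance of the H3K27me3 reads in the tiles of a gene or interval was 3.55 to 7.28 times the mean in bam testis, and in S2 cells 4.74 to 8.75 times. With 1 library per sample and target, no test between samples or genes was possible, and every difference below is a description of these libraries. The levels away from peaks differed between samples for H3K4me3 and H3K36me3. The median 5-kb tile of the arms held 6.68 and 5.51 RPM per kb of these marks in bam testis but 1.44 and 1.53 in S2 cells, while the H3K27me3 medians were 7.45 and 7.27.

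Hox genes encode transcription factors with a homeodomain that give body segments their identity along the head-to-tail axis. Ubx acts in the posterior thorax and first abdominal segment, abd-A in the middle abdomen, and Abd-B in the posterior abdomen and genitalia. The complex is a classical target of the Polycomb group. Polycomb repressive complex 2 places methyl groups on lysine 27 of histone H3, which gives H3K27me3, and response elements within the complex recruit the Polycomb proteins. H3K4me3 usually marks the starts of active genes, H3K36me3 the bodies of transcribed genes, and Trithorax group proteins act against Polycomb repression.

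H3K27me3 covered the complex in both samples. Its density was 19.1 RPM per kb (18.8 to 19.3) in bam testis and 23.4 (23.1 to 23.7) in S2 cells. The flanks held 9.44 on the left and 7.72 on the right in bam testis, and 13.4 and 4.80 in S2 cells. For both flanks together the ratio was 2.22 in bam testis (2.16 to 2.29) and 2.57 in S2 cells (2.49 to 2.65). The other targets were lower in the complex than in both flanks together, although H3K36me3 of bam testis could not be told from the left flank (0.951, 0.899 to 1.005). The ratio to both flanks for bam testis was 0.635 for H3K4me3, 0.820 for H3K36me3 and 0.505 for Pol II, and for S2 cells it was 0.0772, 0.0660 and 0.288, respectively. S2 RNA-seq gave the lowest ratio, 0.00186.

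**Figure D1:**
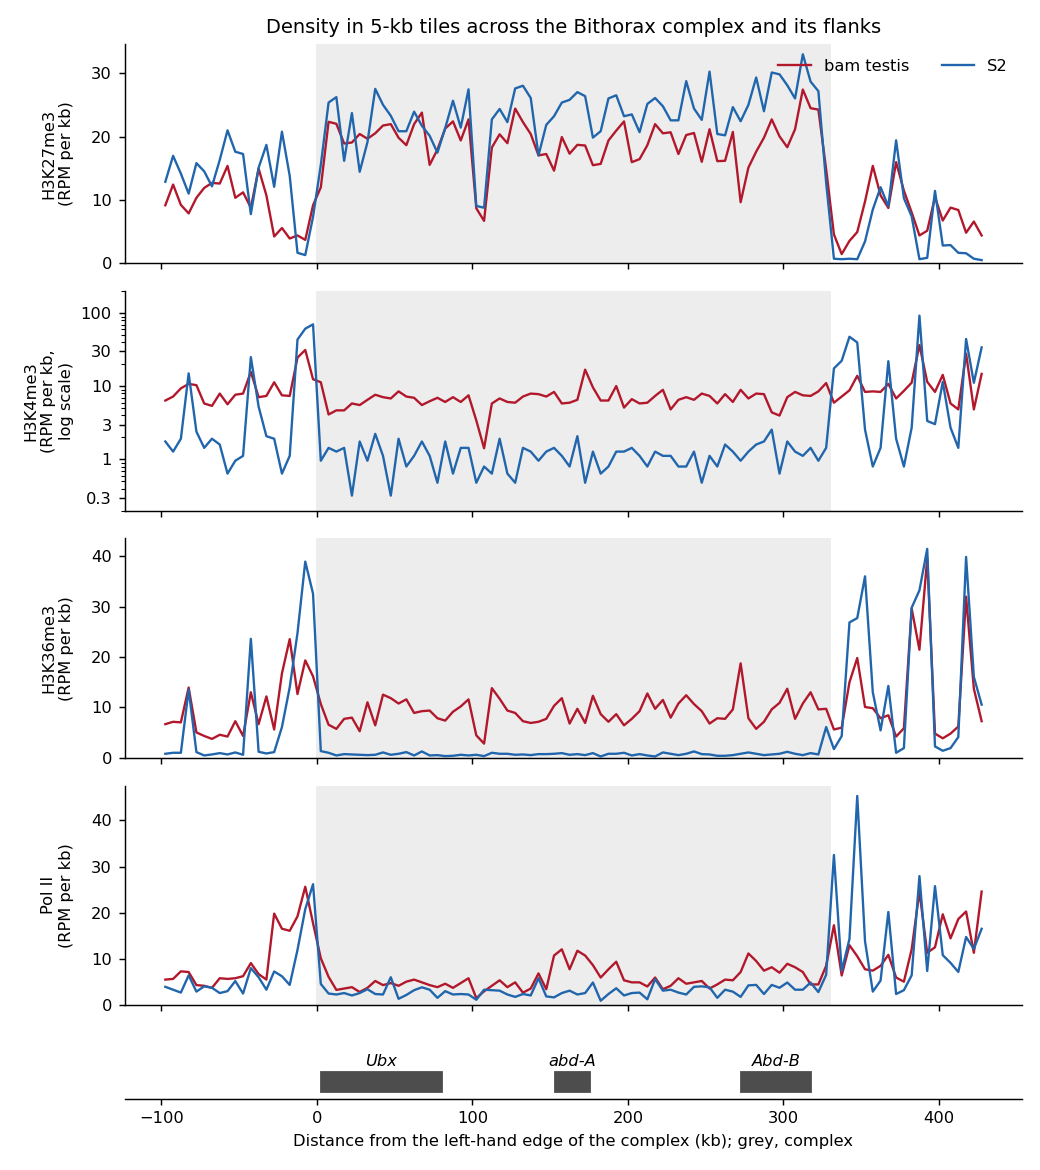
Density (RPM per kb) of 4 targets in 5-kb tiles across the complex (grey) and 100 kb on either side, by distance from the left-hand edge of the complex, with bam testis in red and S2 cells in blue and the 3 genes as bars. H3K27me3 lay between 6.70 and 27.5 in the tiles of the complex in bam testis and between 8.78 and 33.0 in S2 cells, while H3K4me3 (log axis), H3K36me3 and Pol II of both samples were higher just left of the complex than in its first tiles.

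Among windows of the same length placed every 5 kb along the arms, none of 23549 reached the H3K27me3 density of the complex in bam testis. The nearest window, at 3R 2555001 to 2885000, held 18.5 RPM per kb. In S2 cells 26 windows reached it, and the highest, at 3R 25230001 to 25560000, held 25.0. Its density was not even, as the stretch from 25515001 to 25537901 within it held 84.6. How many of the 26 windows contain that stretch was not counted. Neighbouring windows overlap for most of their length, so the 26 are not separate regions. The number of regions they form was not counted. For H3K36me3 the complex was denser than 77.6% of windows in bam testis and than 0.620% in S2 cells. These shares were 25.8% and 1.63% for H3K4me3, and 18.8% and 1.85% for Pol II, respectively.

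A 500-bp tile counted as enriched from 14 RPM per kb upward. This minimum corresponds to a Poisson P under 0.05 for 1 kb and 1000000 reads, with 120 Mb taken here as the genome. The study's figure captions give a cutoff in this form, while its methods set a read count for each library and 500 bp. A count set in that way (11 reads for H3K4me3 and Pol II of bam testis) was tried as an alternative. For the ChIP-seq targets, shares of the arms were counted at 14 RPM per kb alone. Counts at any other minimum therefore have no share of the arms beside them. H3K27me3 passed in 473 of the 660 tiles of the complex in bam testis (71.7%), against 12.5% of all tiles of the arms. In S2 cells it passed in 528 tiles (80%), against 19.9%. All 3 genes were covered for most of their length. In bam testis 125 of 156 tiles of Ubx, 33 of 46 of abd-A and 64 of 90 of Abd-B passed, and in S2 cells 119, 42 and 77 did.

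Ubx held 20.2 RPM per kb of H3K27me3 in bam testis (19.7 to 20.7) and 21.7 in S2 cells (21.1 to 22.3). These values were the closest of the 3 genes, with a ratio of bam testis to S2 cells of 0.932 (0.896 to 0.968). H3K4me3 was 6.46 and 1.18, H3K36me3 was 8.90 and 0.741, and Pol II was 4.41 and 2.83, respectively. No S2 RNA-seq read fell in the 77.9 kb of the gene, which allows up to 0.00528 RPM per kb at a floor of 3 reads and up to 0.0065 at the upper end of the exact interval. At its right-hand end neither sample showed a rise of H3K4me3. The 2 kb inside that end held 5.33 in bam testis (2.99 to 8.80) and 0.400 in S2 cells (0.0101 to 2.23), from 15 reads and 1 read, respectively.

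abd-A held 18.1 RPM per kb of H3K27me3 in bam testis (17.2 to 19) and 25.8 in S2 cells (24.5 to 27.02), a ratio of 0.702 (0.655 to 0.753). It was the gene with the most Pol II in bam testis, at 10.9 (9.76 to 12.1), against 2.72 in S2 cells (2.26 to 3.26). H3K4me3 was 9.07 and 1.15, and H3K36me3 was 9.34 and 0.724, respectively. A single S2 RNA-seq read fell in the gene. Among windows of its length in bam testis, abd-A was denser than 97.9% for H3K27me3, 78.0% for Pol II, 75.8% for H3K4me3 and 72.0% for H3K36me3. This gene thus stood above the middle of the genome for all 4 targets.

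Abd-B held 20.0 RPM per kb of H3K27me3 in bam testis (19.3 to 20.7) and 28.0 in S2 cells (27.1 to 28.9), a ratio of 0.714 (0.680 to 0.748). In S2 cells it was the gene with the most H3K27me3, at 1.29 times the density of Ubx (1.24 to 1.35), whereas in bam testis this ratio was 0.989 (0.947 to 1.03). Pol II was 8.23 in bam testis and 3.92 in S2 cells. H3K4me3 was 7.03 and 1.53, and H3K36me3 was 10.0 and 0.824, respectively. As in abd-A, only 1 S2 RNA-seq read fell in the gene.

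**Figure D2:**
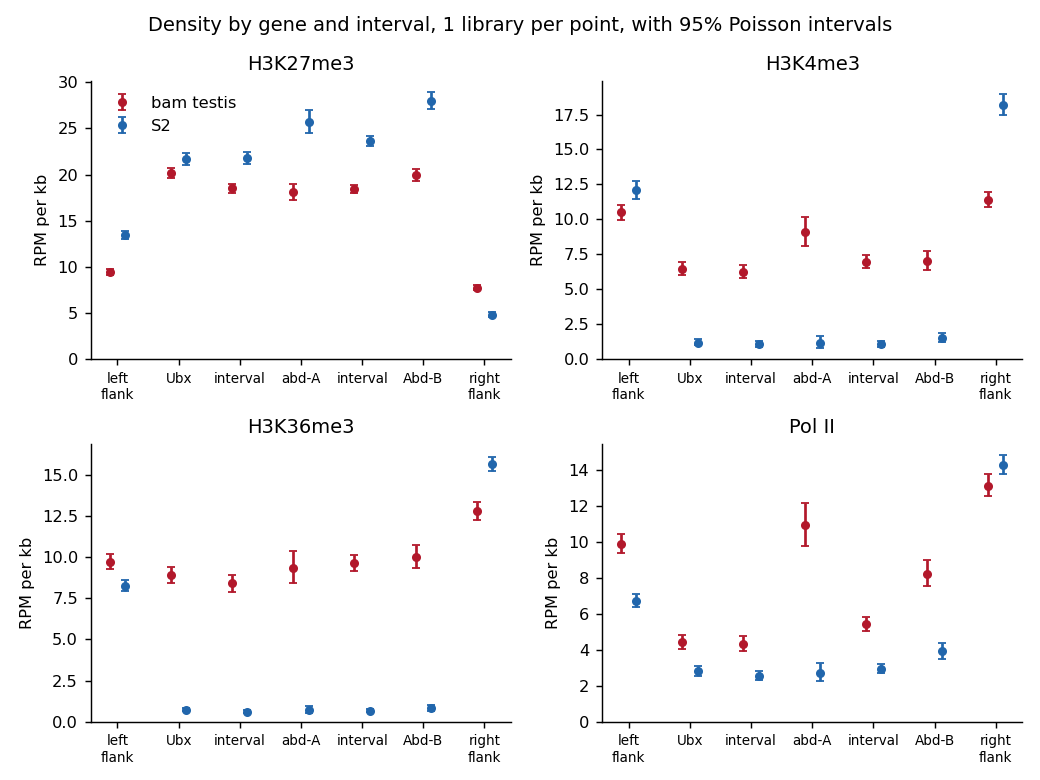
Density (RPM per kb) of 4 targets in the flanks, the 3 genes and the intervals between them, with bam testis in red and S2 cells in blue; each point is 1 library and bars are exact 95% Poisson intervals. Pol II of bam testis was 10.9 in abd-A and 8.23 in Abd-B but 4.41 in Ubx, and S2 H3K27me3 ranged from 21.7 in Ubx to 28.0 in Abd-B.

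The order of the genes differed between targets. For Pol II in bam testis it was abd-A, Abd-B and Ubx, and the counting intervals of these 3 values did not overlap. Those intervals are too narrow, as tiles varied by more than counting error. The variance of the Pol II reads in the tiles was 1.40 times the mean in abd-A, 2.52 in Abd-B and 1.32 in Ubx. The order of the genes was not tested. The density of abd-A was 2.47 times that of Ubx (2.14 to 2.85) and that of Abd-B was 1.87 times (1.64 to 2.12). Ubx was close to the interval beside it, with a ratio of 1.02 (0.888 to 1.16). In contrast, abd-A was 2.51 times as dense as the interval on its left and 2.01 times as dense as that on its right. In S2 cells, Abd-B was 1.39 times as dense as Ubx in Pol II (1.20 to 1.60), and the ratio of abd-A to Ubx was 0.963 (0.780 to 1.18). There the variance of the Pol II reads was 2.66 to 3.25 times the mean in the 3 genes, so these intervals are too narrow as well. For H3K36me3 the genes of bam testis lay between 8.90 and 10.0, and the ratio of abd-A to Ubx was 1.05 (0.931 to 1.18). Thus the gene with the most Pol II in bam testis did not have a matching excess of H3K36me3 in this library.

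Pol II was spread along abd-A in bam testis rather than held in single tiles. Its 46 tiles ranged from 4.47 to 25.3 RPM per kb with a median of 10.4, and 11 of them passed the minimum of 14, against 13.2% of all tiles of the arms. In Ubx the median was 4.47, 9 of 156 tiles held no read and 1 passed. Abd-B lay between them, with a median of 7.45 and 3 tiles of 90 past the minimum. In S2 cells 2 tiles of Ubx, 1 of abd-A and 3 of Abd-B passed, against 11.9% of the arms. Over the whole complex 26 tiles passed in bam testis (3.94%) and 11 in S2 cells (1.67%), both shares below those of the arms. With the minimum at a Poisson P under 0.001 the counts were 7 and 5, and the shares of the arms at that minimum were not counted.

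The right-hand end of abd-A held the longest run of H3K4me3 in the complex. Across the 4 tiles from 12653501 to 12655500, H3K4me3 of bam testis was 26.3 RPM per kb (20.7 to 33.0, 74 reads), with a highest tile of 35.6 at 12654001. H3K27me3 was not lost there, at 17.0 (14.2 to 20.3) over the same 2 kb, although it was 11.8 in that highest tile. Pol II was 10.8 and H3K36me3 7.03. In S2 cells the same 2 kb held 0.800 of H3K4me3 (2 reads), 22.0 of H3K27me3, 3.38 of Pol II and no RNA-seq read. The run was picked out after its values were seen. The right-hand ends of Ubx and Abd-B did not show such a run in bam testis, with 5.33 and 7.47 of H3K4me3 in the last 2 kb of the gene, against 24.9 (19.4 to 31.4) for abd-A. Strand is not part of the gene bounds used here, so the ends are named by side.

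**Figure D3:**
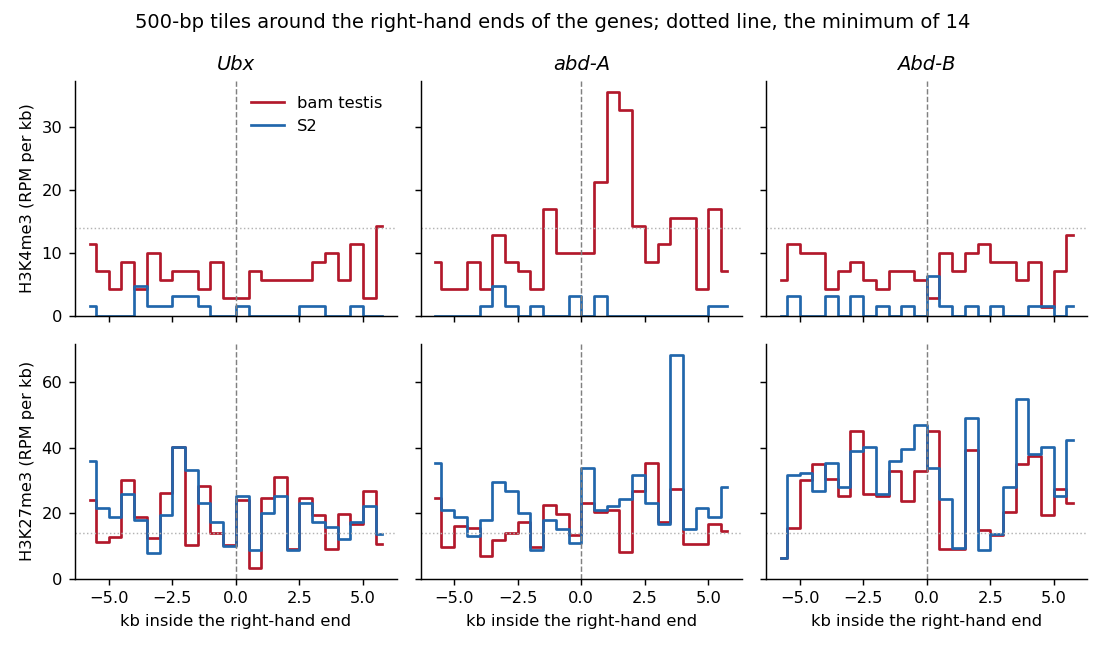
H3K4me3 (top) and H3K27me3 (bottom) in 500-bp tiles (RPM per kb) around the right-hand end of each gene, with positive distances inside the gene, bam testis in red and S2 cells in blue. The H3K4me3 rise within 2 kb of the end of abd-A in bam testis (24.9 over these 2 kb) has no counterpart at Ubx (5.33) or Abd-B (7.47), nor in S2 cells at abd-A (0.800).

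H3K4me3 passed the minimum in 41 tiles of the complex in bam testis (6.21%), against 10.6% of the arms. In S2 cells 0 of 660 passed, against 7.46%. At a Poisson P under 0.001, 6 tiles passed in bam testis, with no share of the arms counted. The highest S2 tile, in Abd-B at 12773501, held 9.60 RPM per kb from 6 reads. Over the 5-kb tiles of the complex the median was 6.83 in bam testis, close to the arm median of 6.68, and 1.12 in S2 cells, where the arm median was 1.44. In bam testis H3K4me3 of the complex therefore sat near the level of a typical tile of that library, with the run at abd-A above it. Outside the run, the highest tile of bam testis was at 12670001 between abd-A and Abd-B, with 27.02. It was followed by a tie at 22.8 of tiles at 12743501 in the same interval and at 12756001 in Abd-B.

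Both H3K4me3 and H3K27me3 passed in 26 tiles of bam testis, 3.94% of the complex against 0.612% of the arms. Of these tiles 5 lay in Ubx, 6 in abd-A, 2 in Abd-B and 12 in the intervals between genes. They made up 63.4% of the 41 tiles with H3K4me3, while 71.7% of all tiles of the complex passed for H3K27me3, so tiles with H3K4me3 carried H3K27me3 no more often than the rest. The highest H3K4me3 among them was 29.9 at 12654501, where H3K27me3 was 23.1. At 14 RPM per kb a tile needed 10 H3K4me3 reads, and 3 tiles passed for both marks when the minimum was set at a Poisson P under 0.001. The share of the arms at that stricter minimum was not counted. S2 cells had 0 tiles with both marks in the complex at 14 RPM per kb, against 0.0569% of the arms. Whether both marks were on the same chromatin or in different cells of the testis was not tested.

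H3K36me3 passed in 127 tiles of the complex in bam testis (19.2%), near the 16.3% of the arms. In S2 cells it passed in 1 tile, against 16.1% of the arms, and that tile lay at 12809001, beyond Abd-B. At a Poisson P under 0.001, 34 tiles passed in bam testis, with no share of the arms counted. Density over the complex was 9.24 RPM per kb in bam testis (8.99 to 9.49) and 0.789 in S2 cells (0.735 to 0.847). The density of bam testis was 11.7 times that of S2 cells over the complex (10.9 to 12.6). In Ubx the interval of this ratio was 10.2 to 14.2, and the ratio was 12.9 in abd-A and 12.2 in Abd-B. The whole libraries also differed in this direction (arm medians of 5.51 and 1.53). The median 5-kb tile of the complex was 1.68 times the arm median in bam testis but only 0.457 of it in S2 cells. The part of the library level in the difference was not tested. The highest tiles of bam testis were 38.7 at 12590501 between Ubx and abd-A, and 37.5 at 12524501 in Ubx.

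At the left-hand end of Abd-B, H3K27me3 of bam testis fell in a stretch where H3K36me3 was high. Leaving out 11 tiles with no read in any library, the 9 tiles from 12750001 to 12754500 formed the longest run under the H3K27me3 minimum. The run was picked out after its values were seen. They held 8.10 RPM per kb of H3K27me3 (6.80 to 9.59) and 19.4 of H3K36me3 (16.4 to 22.8), against 19.1 and 9.24 in the complex as a whole. Their H3K4me3 was 9.16 and their Pol II 6.95. In S2 cells the stretch held 18.6 of H3K27me3 (16.3 to 21.2) and 0.516 of H3K36me3 (0.208 to 1.06, 7 reads). It spans the left-hand end of the gene, and the level of H3K27me3 rose to 23.6 in the next tile in bam testis and to 56.8 in S2 cells.

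**Figure D4:**
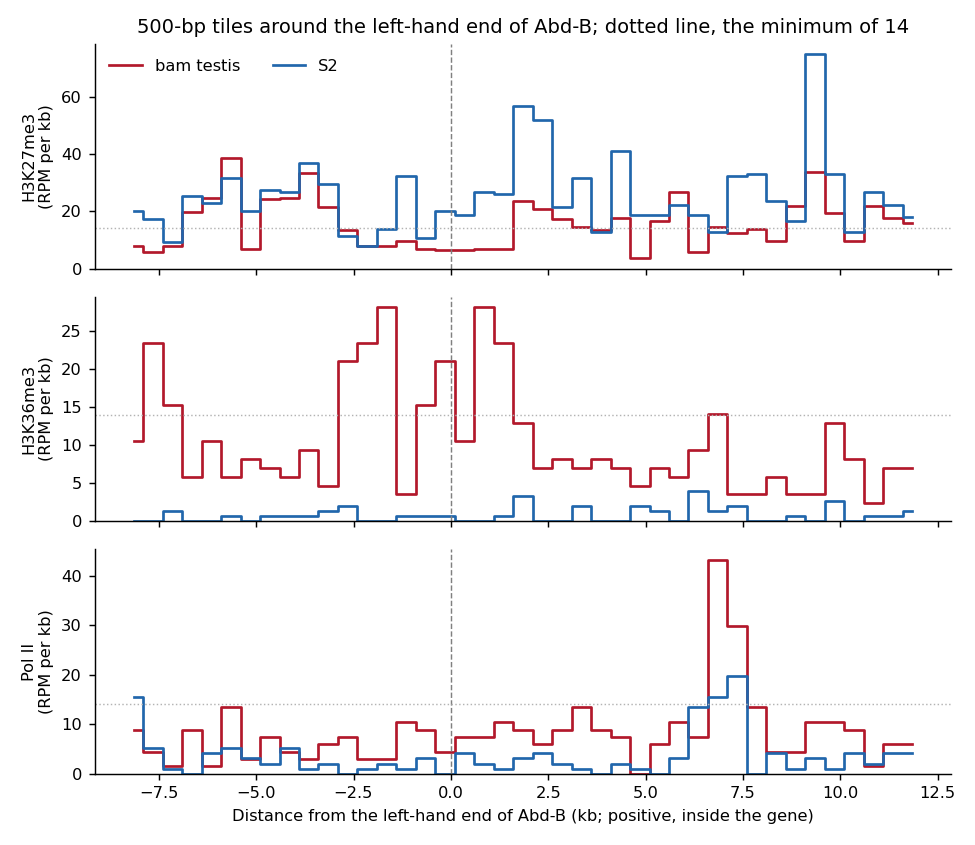
H3K27me3, H3K36me3 and Pol II in 500-bp tiles (RPM per kb) around the left-hand end of Abd-B, with positive distances inside the gene, bam testis in red and S2 cells in blue. In bam testis 4.5 kb around the end held 8.10 of H3K27me3 and 19.4 of H3K36me3, and the Pol II tiles of 43.2 and 29.8 lie inside the gene, where S2 cells held 15.6 and 19.7.

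By a fit of 2 levels, the H3K27me3 domain over the complex began at the left-hand end of Ubx. The breakpoint that best split the tiles into 2 levels fell at 12483001 in bam testis (12482001 to 12483001 within 2 log-likelihood units) and at 12482501 in S2 cells (12482501 to 12484501). The level changed there from 9.44 to 19.2 RPM per kb and from 13.4 to 22.0, respectively. Tile by tile the first step stood further left. From 12480501 to 12482000 H3K27me3 was low again, at 2.15 to 5.36 in bam testis and 0.72 to 9.35 in S2 cells. Before that it rose between the tiles at 12478001 and 12478501, from 3.22 to 22.5 in bam testis and from 3.60 to 20.1 in S2 cells. To the left of this step, 10.5 kb from 12468001 to 12478500 held 77.7 of H3K4me3, 38.1 of H3K36me3, 24.9 of Pol II and 92.6 of RNA-seq in S2 cells, and 1.44 of H3K27me3. In bam testis the same 10.5 kb held 26.5, 19.03 and 23.4 of the first 3 targets and 3.98 of H3K27me3. Further left H3K27me3 returned, so the left flank was not free of the mark. The flank held 9.44 in bam testis and 13.4 in S2 cells, against means of 7.917 and 7.985 over the 5-kb tiles of the arms. Its highest 5-kb tile, at -57.5 kb from the left-hand edge of the complex, held 15.4 and 21.0, respectively.

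On the right the domain ended beyond Abd-B in both samples. The breakpoint was at 12806001 in bam testis, from 19.3 to 7.86 RPM per kb, and at 12808001 in S2 cells, from 25.3 to 4.74. No other position lay within 2 log-likelihood units. This likelihood takes the reads of a tile as Poisson counts, although tiles varied by more than counting error. The ranges of both edges are therefore too narrow, and whether the edges differ between samples was not tested. Over the tiles from 12808001 to 12810000, H3K27me3 was 10.2 to 16.6 in bam testis and at most 1.44 in S2 cells. It was in these last tiles that S2 H3K36me3 rose, to 25.2 at 12809001, and that most of the RNA-seq reads of the complex lay.

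For Pol II, 5 tiles of the complex passed the minimum in both samples, which is 19.2% of the 26 tiles of bam testis and 45.5% of the 11 tiles of S2 cells. Over the arms these shares were 49.7% and 55.3%. Tiles past the minimum were also rarer in the complex, at 3.94% in bam testis and 1.67% in S2 cells. Over the arms 13.2% and 11.9% passed. Sharing relative to these rates was not tested. The 5 shared tiles lay at 12589501 and 12624001 between Ubx and abd-A, at 12695001 between abd-A and Abd-B, and at 12759501 and 12760001 inside Abd-B. Inside Abd-B, Pol II was 43.2 and 29.8 RPM per kb in bam testis, of which the first was the highest tile of the complex in that sample, and 15.6 and 19.7 in S2 cells. At 12695001 it was 14.9 in bam testis and 33.2 in S2 cells, the highest tile of the complex there. The second tile of bam testis, 41.7 at 12481001, lay just left of Ubx and held 10.4 in S2 cells.

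The S2 Pol II tiles were as low in H3K4me3 and RNA as the rest of the complex. All 11 held between 0 and 4.80 RPM per kb of H3K4me3, and 7 held no read (63.6%, against 51.8% of all tiles of the complex). Over the arms 43.9% of the S2 Pol II tiles passed for H3K4me3. RNA-seq reads fell in 1 of the 11, at 12807501, and 98.6% of all tiles of the complex held none. H3K27me3 was low in some of these tiles. At 12695001 it was 4.32 in S2 cells, against a mean of 26.8 in the 5 tiles on either side, at 12624001 it was 2.16 against 20.5, and at 12528501 it was 5.04 against 24.5. In bam testis the same tiles held 13.9, 3.75 and 13.9. Over all 11 tiles H3K27me3 was lower than around them in 7 in S2 cells, which is 63.6% against 53.2% of all tiles of the complex with reads. The dips named are values of single tiles. Next to 12624001, the tile at 12624501 was also low in S2 cells, at 7.195 against 17.8 around it. Of the 26 Pol II tiles of bam testis, 6 also passed for H3K4me3, while 36.4% of the Pol II tiles of the arms did and 6.21% of all tiles of the complex. With 1 copy of each read, 21 of the 26 and 8 of the 11 tiles remained past the minimum.

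S2 RNA-seq gave 60 reads in the 330 kb of the complex, 0.0249 RPM per kb (0.0190 to 0.0321), against 11.1 and 15.7 in the flanks. Of these reads 51 lay beyond Abd-B, 2 in the interval between Ubx and abd-A, and none in the interval between abd-A and Abd-B. RNA-seq density passed 1 RPM per kb in 3 tiles, against 25.6% of the arms, 2 of them at the right-hand edge and 1 at the left. The non-coding transcripts listed between Ubx and Abd-B in the gene order of Release 6 (lncRNA:bxd, lncRNA:iab4, lncRNA:iab8, mir-iab-4 and mir-iab-8) were not counted apart, since that assembly differs from dm3. RNA-seq of bam testis was not analysed here.

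The H3K27me3 landscape within the complex was similar in both samples. Over 64 tiles of 5 kb Spearman's rho between bam testis and S2 cells was 0.555, and over 649 tiles of 500 bp it was 0.586. It was 0.324 and 0.125 for Pol II, 0.308 and 0.158 for H3K36me3, and 0.0676 and -0.0253 for H3K4me3. These values are descriptions across tiles, which are not replicates and share base composition and unique mapping between libraries. The other targets had few reads per tile in S2 cells, and in bam testis they also had fewer than H3K27me3. Over the complex bam testis held 3228 reads of H3K4me3, 5201 of H3K36me3 and 2572 of Pol II, against 23473 of H3K27me3. The rho values were not compared at equal depth. Within bam testis, H3K27me3 and H3K36me3 had a rho of -0.248 over the 500-bp tiles.

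The lowest 5-kb tiles for H3K27me3 were the same pair in both samples, at 12580001 and 12585001 between Ubx and abd-A. They held 8.69 and 6.70 RPM per kb in bam testis and 9.07 and 8.78 in S2 cells. Together they contain the 11 tiles from 12582501 to 12588000 that held no read in any of the 9 libraries, and only uniquely aligned reads were deposited. The third-lowest tile of bam testis was at 12750001, with 9.65, which is the stretch at the left-hand end of Abd-B, and S2 cells held 22.5 there. At the other extreme, the highest 500-bp tiles were 45.1 at 12797501 in Abd-B and at 12800501 beyond it in bam testis, and 74.8 at 12762001 in Abd-B and 65.5 at 12667501 between abd-A and Abd-B in S2 cells.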

How the data were processed

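Chromatin of bam testis and S2 cells was immunoprecipitated and sequenced by the authors, who aligned the reads to dm3 with ELAND, allowed up to 2 mismatches and kept unique hits. The methods describe this for reads of 25 bp. The RNA-seq reads were 36 bp, and their aligner is not given in the sources used here. The deposited files give 1 read per line by position and strand, without counts or normalization, and they are not merged. Identical reads were limited to 3 copies, following the study's methods. ChIP-seq 5′ ends were moved inward by 80 bp, the middle of fragments of 160 bp, and RNA-seq 5′ ends were not moved. Reads were counted per gene, interval and tile and divided by length and kept reads.

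The arms hold between 93.5% and 99.3% of the kept reads. Densities carry exact Poisson intervals and ratios exact conditional binomial (Clopper-Pearson) intervals, both at 95%. There was no test between samples. Breakpoints maximise a 2-level Poisson likelihood. The functions were tested on simulated reads with Poisson counts, which do not have the wider spread of these tiles. Tiles named are the 5 highest per library and the 5 lowest 5-kb tiles for H3K27me3, and other tiles and stretches named were chosen after their values were seen. The genes, lists and rules were chosen with earlier results of these data known. Alternatives were 1 or all copies of a read, no shift of reads, thinning to 1250028 reads, flanks of 50 kb, a minimum at a Poisson P under 0.001, tiles moved by 250 bp and 1-kb tiles for breakpoints. No sequences are printed, and no dm3 annotation was used, so marker genes, transcript starts and genes outside the complex were not analysed here. Computation used Python 3.11.15, numpy 2.4.6, scipy 1.17.1, pandas 2.3.3 and matplotlib 3.10.9.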

Additional observations from a re-analysis of the deposited data

Results flagged for a closer look

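The H3K27me3 density of abd-A relative to Ubx lay below 1 in bam testis and above 1 in S2 cells. It was 0.895 in bam testis (0.846 to 0.947) and 1.19 in S2 cells (1.12 to 1.26). Each value comes from 1 library with intervals for counting error alone, and whether the samples differ was not tested.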

How the results depend on the processing

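Of 328 values recomputed under an alternative, 297 stayed within their counting interval or, for counts, within 1.5 times, 31 moved and 0 turned direction. Only ratios to the flanks or between genes, with an interval that excluded 1, could turn direction. Densities, counts and breakpoints could not. With 1 copy of each read, the ratio of the complex to its flanks in S2 cells was 0.102 for H3K4me3, 2.45 for H3K27me3, 0.0795 for H3K36me3, 0.313 for Pol II and 0.00242 for RNA-seq. S2 densities (RPM per kb) then were 1.51 and 1.97 for H3K4me3, 20.9 and 26.3 for H3K27me3, and 0.894 and 0.994 for H3K36me3 in Ubx and Abd-B, respectively, 2 tiles passed for S2 H3K36me3, and 4 windows reached the S2 H3K27me3 density of the complex in place of 26. With all copies the S2 H3K4me3 ratio was 0.0660. Without the shift the right-hand breakpoint of S2 cells lay at 12807501, and after thinning Abd-B held 27.01 of S2 H3K27me3, 1.22 times Ubx. With flanks of 50 kb the ratio was 2.34 for H3K27me3 of bam testis, and for S2 cells 0.0633 for H3K4me3, 0.0572 for H3K36me3, 0.247 for Pol II and 0.00128 for RNA-seq. At a Poisson P under 0.001, 6 tiles passed for H3K4me3, 34 for H3K36me3 and 7 for Pol II in bam testis, 5 for Pol II in S2 cells, and 3 for both H3K4me3 and H3K27me3 in bam testis, fewer by construction. With tiles moved by 250 bp, 2 passed for S2 H3K36me3. The next 3 alternatives were chosen after seeing the data. With the minimum at a Poisson P under 0.05 at the depth of each library, 2 tiles passed for S2 H3K36me3, and bam testis had 30 for H3K4me3, 19 for Pol II and 23 for both marks. Shares of the arms were not counted at either Poisson minimum. The complex cut to the outer ends of Ubx and Abd-B gave S2 ratios of 0.0588 for H3K36me3 and 0.00013 for RNA-seq, and leaving out the empty tiles moved no ratio. For the other alternatives the cause was not tested. No paired analysis was possible because each sample and target had 1 library. Depth limits single tiles, which passed from 9 or 10 reads for H3K4me3, and 51.8% of the tiles of the complex held no S2 H3K4me3 read.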
